A study of Mus musculus with 4 samples.

Results

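The genes described here encode chaperones and their helpers, mainly of the cytosol and the secretory pathway: the heat shock proteins HSP90, HSP70 and HSP110, the J-domain proteins, the chaperonin CCT with prefoldin, the BAG and FKBP families, and the HSP90 co-chaperones Stip1 and Ahsa1. They were chosen by gene symbol alone, from the Hsp, Dnaj, Cct, Bag, Fkbp and Pfdn stems plus Tcp1, Stip1 and Ahsa1. The mitochondrial chaperone genes Hspd1, Hspe1 and Hspa9 and the matrix proteoglycan gene Hspg2 were left out. Genes of proteins from other compartments that match a stem stayed in, such as Dnajc19 of the mitochondrial import motor. The rule found 60 of the 4878 genes of the table: 18 J-domain, 10 FKBP, 8 CCT, 7 HSP70, 4 BAG, 4 prefoldin, 3 HSP90 and 2 HSP110 genes, 2 HSP90 co-chaperones, the small heat shock gene Hspb8 and the HSP70-binding protein gene Hspbp1. Symbols did not use measured values, but the list was drawn up with earlier results of these data known.

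The libraries are ribosome profiling libraries, which sequence the mRNA pieces, or footprints, that ribosomes shield from RNase I. The cells were mouse embryonic fibroblasts, primary connective tissue cells grown from embryos, at passages 5 to 8, with no genetic change named in the labels. The control group received Si-Negative control and the other group Si-eIF1A (X+18), a term the labels do not spell out, both with Lipofectamine RNAimax, and each group held 2 libraries. eIF1A is the initiation factor that helps the small ribosomal subunit scan the 5' untranslated region (5' UTR) for a start codon, and the comparison asks which mRNAs gain or lose footprints in either region when it is targeted. Eif1ax and Eif1a, the genes of the siRNA target, were not analysed here, so the extent of the knockdown is unknown. No label says whether the 2 libraries of a group are separate cultures, so the spread behind each p-value may be technical only.

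Chaperones bind unfolded or partly folded proteins. HSP70 takes up short hydrophobic stretches under the control of J-domain proteins, which start its ATP cycle, and of exchange factors such as HSP110 and BAG proteins, which end it. HSP90 acts later on kinases, hormone receptors and other clients with the help of co-chaperones. CCT is a ring-shaped chamber of 8 different subunits that folds actin and tubulin, and prefoldin hands such chains to it. FKBP proteins are prolyl isomerases, several of which work in the lumen of the endoplasmic reticulum. Many cytosolic chaperone genes are induced by heat shock factor 1 (HSF1), which binds inverted GAA units, and the lumenal chaperones by the unfolded protein response.

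Promoter sequence is shown because the elements bound by HSF1 and in the unfolded protein response are the textbook control sites of these genes. A part of these elements in the footprint changes was not tested. Promoters came from RefSeq (GRCm38.p6), 250 bases before to 50 after a start site, and were found for 48 of the 60 genes. On both strands, GAANNTTC or TTCNNGAA, a pair of inverted units and the same word when read from either strand, was in the promoters of 10 of the 48 chaperone genes (20.8%) and of 17.0% of 27025 genes. A run of 3 alternating units with 2 bases of any kind between them, which contains both words, was in Dnajb6 and Hsph1 and in 0.662% of all genes. The endoplasmic reticulum stress element, CCAAT and CCACG with 9 bases of any kind between them, was in Hsp90b1 and Hspa5 and in 0.137% of all genes. Capitals mark the match in each stretch of 30 bases, written 5′ to 3′ on the gene's strand. In the order printed they lie at chr10:86705632-86705661, minus strand; chr10:86705527-86705556, minus strand, where the element reads on the opposite strand; chr2:34772020-34772049, plus strand; chr5:29735844-29735873, plus strand; chr10:117063399-117063428, minus strand; and chr2:76673277-76673306, minus strand.
Hsp90b1, farther from the start: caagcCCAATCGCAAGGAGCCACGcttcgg
Hsp90b1, nearer the start: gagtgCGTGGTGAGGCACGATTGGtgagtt
Hspa5: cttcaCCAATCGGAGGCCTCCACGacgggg
Dnajb6: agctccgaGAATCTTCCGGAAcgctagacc
Cct2: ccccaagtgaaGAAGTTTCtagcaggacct
Fkbp7: gccagttttatTTCAGGAAacgcaagtctg
These matches are descriptions of letters, not binding sites. In the coding footprints Hsp90b1 fell while Hspa5 lay at a log2 change of -0.04, and Cct2 rose while Dnajb6 and Fkbp7 fell, as detailed below. The inverted units printed are all from genes that passed the threshold for coding reads. Of the other genes with such a pair, Cct6a rose and Bag3, Cct5, Fkbp4 and Hsph1 did not pass. Hspa1b and Hspb8 also have a pair and had too few coding reads to be tested.

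The listed genes held 458191 to 617663 reads per library except in eIF1A siRNA replicate 2, which held 280649 over both regions. The chaperone genes held 12723 and 18278 coding reads in the control libraries and 13584 and 6441 in the eIF1A siRNA libraries, and 1085 to 2627 reads in the 5' UTR. Of 9 fibroblast markers, Vim, Fn1 and S100a4 were listed, all with reads in every library, but S100a4 coding reads fell (log2 change -2.92, limma adjusted p = 2.4e-05). Markers of endothelial, leukocyte, skeletal muscle, adipocyte and erythroid cells were not analysed here, and of 5 epithelial markers only Dsp was listed, with 109 and 146 normalized coding reads against 82.4 and 71.8 (not called). Of 4 neuronal markers, Map2 and Nes were listed. Map2 fell from 65.9 and 55.3 to 15.3 and 6.38 normalized coding reads, and Nes went from 93.9 and 151 to 77.3 and 62.3 (not called). The part of these marker differences in the results below was not tested. RNA-seq was not used here, so mRNA amount and translation both enter a footprint number, and in such bulk libraries fewer cells of a type and less RNA per cell cannot be told apart.

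Coding footprints of the chaperone genes went both ways. Levels are the deposited normalized reads, and changes are log2 differences (eIF1A siRNA over control, pseudocount 1) ± standard error. Of 57 genes whose mean reached 10 normalized reads, 7 rose and 8 fell at a limma adjusted p under 0.05, and 42 did not pass. Among all 4619 genes tested, 10.6% rose and 18.7% fell (29.3% in either direction), so with the deposited scaling both counts are near the background. The median change was 0.15 for the chaperone genes and -0.16 for all genes. In 23 chaperone genes both eIF1A siRNA libraries lay above both controls (26.0% of all genes tested) and in 14 both lay below (40.1%). Coding reads of Dnajc24, Hspa1b and Hspb8 were too few to be tested. Of the called genes, Pfdn4 reached a mean of 10 through the eIF1A siRNA libraries alone. Hspa12b, Hspa2 and Fkbp7 reached it through the control libraries alone. Each of these 4 thus entered the test through the group where it was higher. With TMM scaling, which brings the all-gene median to 0.01, 15 chaperone genes rose and 6 fell, beside 16.9% and 16.6% of all genes. Without control replicate 1, limma called Cct6a, Fkbp9 and Hsp90b1 (6.37% of all genes were called), and without control replicate 2 none (9 genes at an unadjusted p under 0.05; 0.238% of all genes called).

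**Figure D1:**
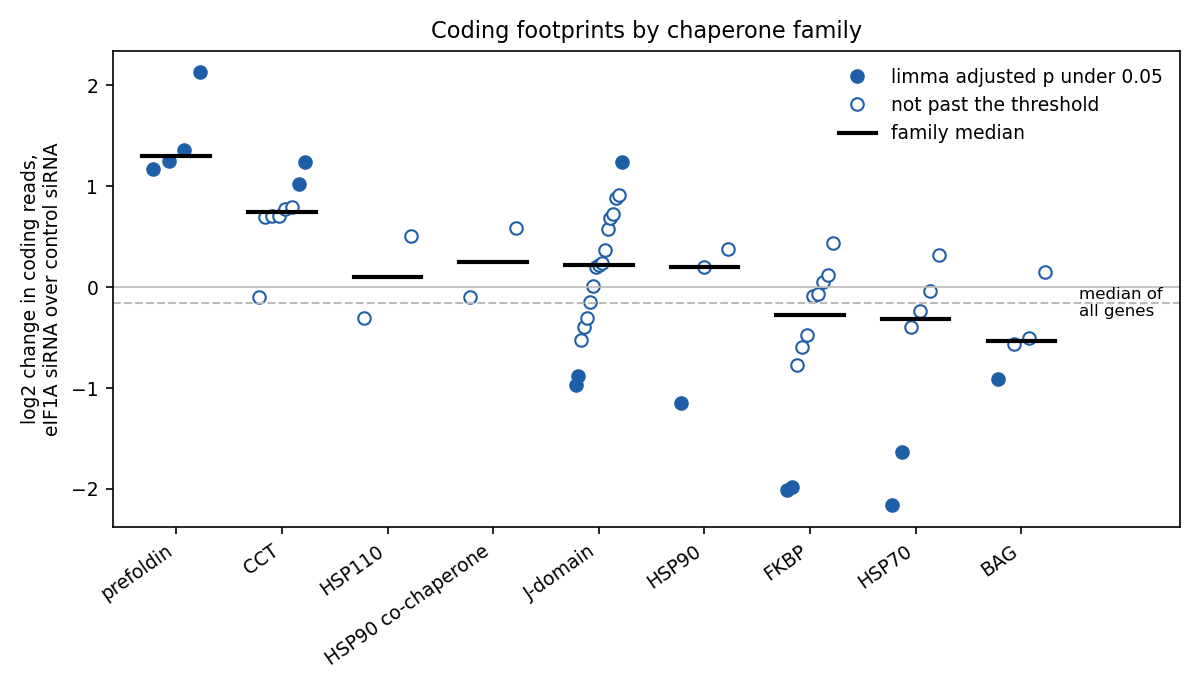
Coding-read changes (vertical axis, log2, eIF1A siRNA against control) of the tested chaperone genes, grouped by family (without Hspbp1), where each point is 1 gene, filled points passed the limma threshold, black bars are family medians, and the dashed line is the median of all 4619 genes tested. All 4 prefoldin points lie at 1.17 or above, 7 of 8 CCT points lie above 0, and the lowest points are in the HSP70 and FKBP families.

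The 4 listed prefoldin genes, whose protein complex delivers newly made actin and tubulin chains to CCT, all rose, beside 10.6% of all genes tested. Pfdn4 (chr2:170496428-170519070), which the filter let in through its eIF1A siRNA libraries alone, had 5.02 and 5.19 normalized coding reads in the control libraries and 29.5 and 22.4 in the eIF1A siRNA libraries, a change of 2.13 ± 0.52 (limma adjusted p = 0.00665). Pfdn6 had 15.8 and 14.7 against 46.8 and 35.1, a change of 1.36 ± 0.38 (adjusted p = 0.0139). The groups are far apart in both genes, and each control pair lies within a few normalized reads. Pfdn1 had 24.4 and 23.3 against 57.0 and 59.1, a change of 1.25 ± 0.33 (adjusted p = 0.011). Pfdn2 (chr1:171344954-171359254) had 19.4 and 19.9 against 47.8 and 43.1, a change of 1.17 ± 0.35 (adjusted p = 0.0203). The rises of the 3 genes that reached the filter in both groups ran from 2.25-fold to 2.56-fold. These are genes with few reads, 90 and 73 in total in the control libraries and 178 and 100 in the eIF1A siRNA libraries. Vbp1, which encodes a further prefoldin subunit under another symbol, also rose, from 25.8 and 19.0 to 63.1 and 41.5 (1.17 ± 0.36, adjusted p = 0.0241). Pfdn4 overlaps the span of the gene Cyp24a1, and the sources used here do not give how reads in such overlaps were assigned. With DESeq2, Pfdn2 and Pfdn6 did not pass (adjusted p = 0.0843 and 0.055), and with limma no Pfdn gene passed without control replicate 1 (adjusted p from 0.0863 to 0.151) or control replicate 2 (0.136 to 0.207).

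The CCT genes encode the subunits of the chaperonin ring that folds actin and tubulin. Of 8 genes 2 rose, beside 10.6% of all genes tested. In 7 both eIF1A siRNA libraries lay above both controls, beside 26.0% of all genes tested. Cct6a, the zeta subunit (chr5:129787356-129846443), had 209 and 155 normalized coding reads in the control libraries and 486 and 374 in the eIF1A siRNA libraries, a change of 1.24 ± 0.29 (limma adjusted p = 0.00593). Cct2, the beta subunit (chr10:117050997-117063852), had 199 and 145 against 411 and 292, a change of 1.02 ± 0.30 (adjusted p = 0.0187). Both genes thus had 2.36-fold and 2.03-fold more coding footprints, with clear gaps between the groups.

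The gamma, delta, epsilon, eta and theta subunits had smaller differences that did not pass. Cct3 (gamma) had 231 and 138 against 405 and 239, a change of 0.80 (95% interval 0.09 to 1.50). Cct7 (eta) had 276 and 187 against 487 and 310, a change of 0.77 (0.10 to 1.44). Cct8 (theta), Cct4 (delta) and Cct5 (epsilon) differed by 0.71, 0.70 and 0.69, and adjusted p over these 5 genes ran from 0.0766 to 0.113. In each of the 5 the lower eIF1A siRNA library was above the higher control. With TMM scaling all 5 passed as well, with adjusted p from 0.0232 to 0.036.

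Tcp1, the alpha subunit gene (chr17:12916329-12925067), stood apart from the other 7. It had 363 and 265 normalized coding reads in the control libraries and 308 and 273 in the eIF1A siRNA libraries, so the groups overlapped, and its change was -0.10 ± 0.29 (95% interval -0.71 to 0.52, adjusted p = 0.833; TMM 0.07). As a share of all coding reads of the 8 genes, not corrected for length, Tcp1 held 18.7% and 19.6% in the controls and 9.60% and 12.3% after eIF1A siRNA. Over the same libraries Cct6a went from 10.8% and 11.5% to 15.2% and 16.9%. A difference between Tcp1 and the other subunits was not tested as such. Tcp1 overlaps Mrpl18 and Acat3 and holds small nucleolar RNA genes within its span, and Cct6a overlaps Psph and also holds such genes.

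The 3 HSP90 genes had different coding changes, and Hsp90b1 was the one that fell. Hsp90b1 (chr10:86690841-86705444) encodes GRP94, the HSP90 of the endoplasmic reticulum lumen. It had 1749 and 1755 normalized coding reads in the control libraries and 814 and 763 in the eIF1A siRNA libraries, a change of -1.15 ± 0.29 (limma adjusted p = 0.00895), or 2.22-fold less. Both cytosolic genes lay on the other side of 0 without passing. Hsp90ab1, the constitutive form (chr17:45567778-45573261), had 1914 and 1481 against 2424 and 1970, a change of 0.38 (95% interval -0.30 to 1.05). Hsp90aa1, the more stress-inducible form (chr12:110691036-110696395), had 1094 and 995 against 1326 and 1082, a change of 0.20 (-0.43 to 0.83). Hsp90b1 accordingly went from 36.8% and 41.5% of all HSP90 coding reads to 17.8% and 20.0%. Hsp90aa1 and Hsp90ab1 are close in sequence to each other and to processed pseudogenes, so the split of reads between them is uncertain.

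Of the HSP90 co-chaperones, Stip1, the adaptor that links HSP70 to HSP90, had 459 and 328 against 516 and 255 normalized coding reads, with overlapping groups and a change of -0.10. Ahsa1, which stimulates the HSP90 ATPase, had 61.6 and 38.9 against 69.2 and 79.8, a change of 0.59 that did not pass. Among 13 other HSP90 partner genes listed in the table, 1 passed, beside 29.3% of all genes tested. It was Ppid, the cyclophilin co-chaperone of steroid receptor complexes, with 38.0 and 38.0 against 125 and 92.6 (1.48 ± 0.31, adjusted p = 0.00279).

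In the HSP70 family 2 of 6 tested genes fell, Hspa12b and Hspa2, beside 18.7% of all genes tested. Both had reached the filter through the control libraries alone. Hspa12b, a divergent family member known from endothelial cells (chr2:131127412-131145985), had 40.1 and 25.9 normalized coding reads in the control libraries and 12.2 and 3.19 in the eIF1A siRNA libraries, a change of -2.16 ± 0.55 (limma adjusted p = 0.00902). Hspa2, best known from the testis (chr12:76403812-76406938), had 20.8 and 19.9 against 7.12 and 4.79, a change of -1.64 ± 0.53 (adjusted p = 0.0308). Their eIF1A siRNA values rest on 14 and 10 reads, and the ratio of control to eIF1A siRNA was 3.87 (95% counting interval 2.19 to 7.38) and 3.28 (1.65 to 7.24). These intervals cover counting error only. With DESeq2 Hspa2 did not pass (adjusted p = 0.117), while Hspa12b did (0.0348).

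The main cytosolic and lumenal HSP70 genes did not pass. Hspa8, the constitutive cytosolic HSP70 (HSC70), had 1948 and 1417 normalized coding reads in the control libraries and 1736 and 923 in the eIF1A siRNA libraries, a change of -0.39 (95% interval -1.13 to 0.35). Hspa5, which encodes BiP, the HSP70 of the endoplasmic reticulum lumen, had 807 and 581 against 861 and 514, a change of -0.04 (-0.73 to 0.65). The groups overlapped in both genes. Hspa13 (-0.23), a chaperone of the microsomal lumen, and Hspa14 (0.31), which works with a ribosome-bound J-domain protein, did not pass either. Hspa1b, the heat-inducible HSP70, had 8.60 and 8.64 against 11.2 and 4.79, too few to be tested, and reads from its near-identical copy may be shared with it.

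HSP110 and BAG proteins release nucleotide from HSP70. Of the HSP110 genes, Hspa4 had 390 and 387 against 300 and 329 normalized coding reads (-0.31) and Hsph1 had 118 and 137 against 178 and 184 (0.51). Both eIF1A siRNA libraries lay below both controls in Hspa4 (40.1% of all genes tested) and above them in Hsph1 (26.0%). The differences thus ran in opposite directions, and neither gene passed. Among 4 BAG genes 1 fell, beside 18.7% of all genes tested. It was Bag6, which went from 598 and 723 to 345 and 356 (-0.91 ± 0.28, limma adjusted p = 0.0254). Bag6, a triage factor for tail-anchored and mislocalised membrane proteins (chr17:35135156-35147321), had lower values in both eIF1A siRNA libraries than in either control. Bag3, the stress-inducible member, had 70.9 and 49.3 against 58.0 and 27.1 (-0.56, not called), and Bag4 and Bag5 did not pass. Hspbp1, another exchange factor, had 10.8 and 6.05 against 28.5 and 14.4 (1.23, adjusted p = 0.094). With TMM scaling Bag6 no longer passed (-0.74, adjusted p = 0.0734) and Hspbp1 did (1.38, adjusted p = 0.0342).

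The J-domain genes, the largest family, were scattered: of 17 tested, 1 rose and 2 fell, beside 10.6% and 18.7% of all genes tested. Their median change was 0.22. Dnajc2, a ribosome-associated protein that works on emerging chains (chr5:21757266-21785264), had 33.0 and 13.0 normalized coding reads in the control libraries and 57.0 and 44.7 in the eIF1A siRNA libraries, a change of 1.24 ± 0.41 (limma adjusted p = 0.0342). Dnajb6, an inhibitor of polyglutamine aggregation (chr5:29735898-29786478), had 83.1 and 88.2 against 41.7 and 44.7, a change of -0.97 ± 0.31 (adjusted p = 0.0259). Dnajc13, an endosomal protein (chr9:104151597-104263608), had 170 and 232 against 102 and 113, a change of -0.88 ± 0.29 (adjusted p = 0.0338). In all 3 genes the groups did not overlap, beside 26.0% of all genes tested wholly above the controls and 40.1% wholly below. The Dnajc2 controls, however, differ from each other by more than 2-fold. The remaining 14 lay between -0.52 (Dnajc16) and 0.91 (Dnajc19, a subunit of the mitochondrial import motor). Dnaja2, a major cytosolic partner of HSP70, had 178 and 113 against 163 and 163 (0.20), and Dnajb1, a classical HSF1 target, had 33.0 and 22.5 against 29.5 and 25.5 (0.01). None of the 3 passed with DESeq2 (adjusted p = 0.135 for Dnajc2, 0.0809 for Dnajb6 and 0.0554 for Dnajc13) or in limma without a variance trend (0.0682, 0.0537 and 0.086). With TMM scaling Dnajc13 did not pass (-0.71, adjusted p = 0.0766), while Dnajc11 (1.04, 0.0341) and Dnajc8 (0.89, 0.0303) did.

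Among the FKBP genes 2 of 10 fell, near the 18.7% of all genes tested that fell. Both encode prolyl isomerases of the endoplasmic reticulum lumen. Fkbp9 (chr6:56832059-56879360) had 165 and 136 normalized coding reads in the control libraries and 43.7 and 30.3 in the eIF1A siRNA libraries, a change of -2.01 ± 0.31 (limma adjusted p = 0.000387), or 4.02-fold less. Fkbp7 (chr2:76663034-76673098) had 17.2 and 17.3 against 4.07 and 3.19, a change of -1.99 ± 0.62 (adjusted p = 0.0254), with only 6 reads over both eIF1A siRNA libraries, so that it reached the filter through the controls alone, and a counting ratio of 4.63 (1.96 to 13.3). The groups are well apart in both genes. With DESeq2 Fkbp7 did not pass (adjusted p = 0.0789), while Fkbp9 did (4.7e-05). Fkbp10, a lumenal isomerase that acts on collagen chains, had 194 and 170 against 143 and 120 (-0.47), and Fkbp4, the steroid receptor co-chaperone FKBP52, had 98.2 and 98.5 against 138 and 129 (0.44). Both eIF1A siRNA libraries lay below both controls in Fkbp10 (40.1% of all genes tested) and above them in Fkbp4 (26.0%). Neither gene passed.

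**Figure D2:**
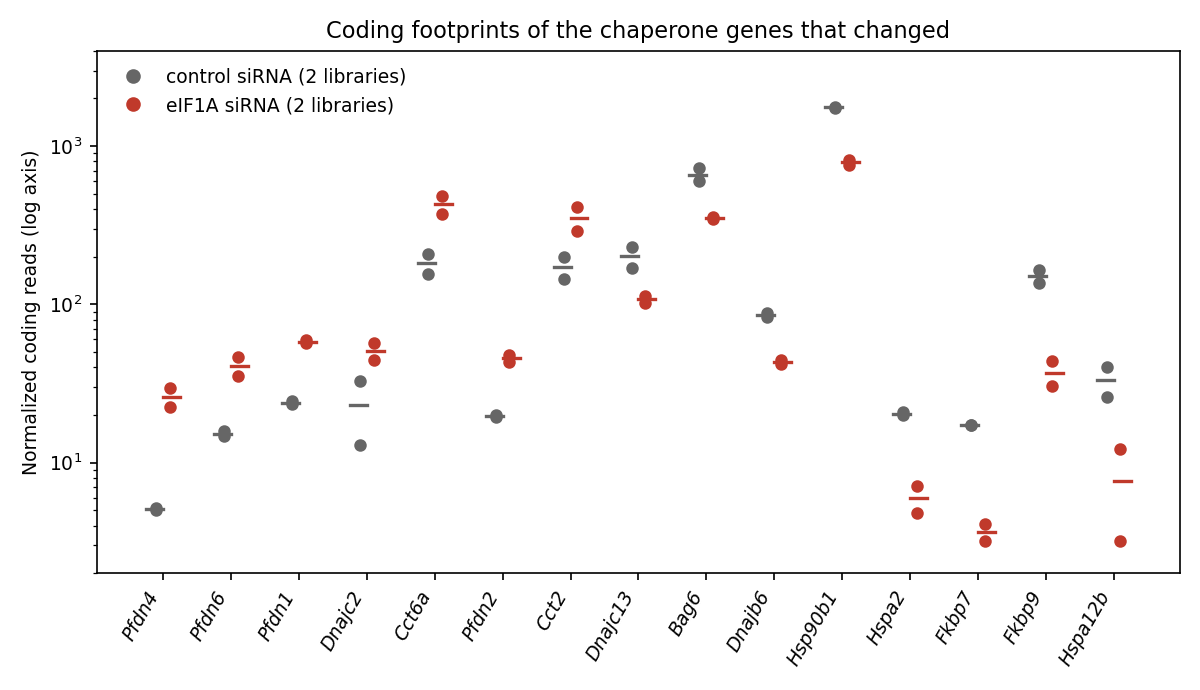
Normalized coding reads (log axis) of the 15 chaperone genes that passed the limma threshold, with each library as 1 point, short bars at group means, and control siRNA and eIF1A siRNA in separate colours. In each of the 7 genes that rose both eIF1A siRNA points lie above both control points, and in each of the 8 that fell both lie below.

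Read by compartment, 3 of the 10 listed chaperone genes of the secretory pathway lumen fell (Hsp90b1, Fkbp7 and Fkbp9), beside 18.7% of all genes tested. Fkbp7 had reached the filter through the controls alone. The median change of the 10 genes was -0.43. Of 47 tested genes outside the lumen, 7 rose and 5 fell, beside 10.6% and 18.7% of all genes tested, with a median of 0.31. In 5 of the 10 lumenal genes both eIF1A siRNA libraries lay below both controls, against 40.1% of all genes tested, so the count of genes below is near the background. Hspa5, Fkbp2, Fkbp11, Hspa13 and Dnajb11 overlapped between the groups. Summed over the 10 genes, normalized coding reads were 3115 and 2823 in the control libraries and 2081 and 1555 in the eIF1A siRNA libraries, of which Hsp90b1 gave 1749, 1755, 814 and 763. A difference between the compartments was not tested as such.

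None of 9 tested genes known as HSF1 targets passed limma's threshold for coding reads, beside 29.3% of all genes tested (Bag3, Stip1, Hspa8, Dnajb1, Hsp90aa1, Hsp90ab1, Fkbp4, Hsph1 and Ahsa1), with changes from -0.56 to 0.59 and a median of 0.20. None of the 9 had an unadjusted p under 0.05, and edgeR and DESeq2 also called 0. limma called Hsph1 higher with quantile scaling (0.79, adjusted p = 0.0396) and Bag3 lower without eIF1A siRNA replicate 1 (-1.10, adjusted p = 0.00891). Hsf1 and Hsf2 were not analysed here. Beyond the chaperones, 1 of 6 other HSP70 partner genes rose, beside 10.6% of all genes tested. It was Naca, the alpha subunit of the nascent polypeptide-associated complex (168 and 188 against 458 and 287, a change of 1.02 ± 0.30, limma adjusted p = 0.0189). Of 10 tested actin, tubulin and other CCT substrate genes, Tubb6 rose (1.07, adjusted p = 0.0127) and Tuba1a fell (-1.92, adjusted p = 0.011). Among all genes tested 10.6% rose and 18.7% fell. Of 2 tested R2TP genes, whose products assemble complexes with HSP90, 1 rose, Ruvbl1 (1.27, adjusted p = 0.0117).

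In the 5' UTR the chaperone genes that passed all rose. Of 33 chaperone genes whose mean there reached 10 normalized reads, 23 rose at a limma adjusted p under 0.05 and 10 did not pass. Among all 2101 genes tested, 44.0% rose and 2.81% fell (46.8% in either direction). No chaperone gene fell by limma, edgeR or DESeq2, and 0 were lower at an unadjusted p under 0.05. The median change was 1.62 for the chaperone genes and 1.09 for all genes. However, 9 of the 23 that rose (Ahsa1, Cct3, Cct5, Cct6a, Dnajc13, Dnajc9, Hsp90aa1, Hspbp1 and Stip1) and Bag5 had a control mean under 10 and entered the test only through the eIF1A siRNA libraries. Of the 23 genes that reached the filter in both groups, 14 rose and 9 did not pass. The share of all genes under this stricter filter was not computed, so these counts have no like background here. In 30 chaperone genes both eIF1A siRNA libraries lay above both controls (67.4% of all genes tested), and Hspb8 was the 1 gene with both below (7.19%). Scaling matters here: TMM within the 5' UTR brings the all-gene median to 0.03, and then 12 chaperone genes rose and Hspb8 fell, beside 19.6% and 20.1% of all genes. The 12 were Cct2, Cct3, Cct4, Cct5, Cct6a, Fkbp1a, Hsp90aa1, Hsp90ab1, Hspa4, Hspa5, Hsph1 and Pfdn6. Without control replicate 1 limma called 8 higher (8.52% of all genes), without control replicate 2 it called 9 (16.1%), and without eIF1A siRNA replicate 2 it called 15 (33.5%). Cct3, Cct4, Cct5, Fkbp1a, Hsp90aa1, Hsp90ab1, Hspa4 and Hsph1 were called in each of these.

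Both cytosolic HSP90 genes rose strongly in the 5' UTR. Hsp90ab1 had 46.6 and 65.7 normalized 5' UTR reads in the control libraries and 588 and 773 in the eIF1A siRNA libraries, a change of 3.58 ± 0.43 (limma adjusted p = 2.53e-14) and 2.49 above the all-gene median. Hsp90aa1 had 5.02 and 8.64 against 41.7 and 99.0, a change of 3.10 ± 0.53 (adjusted p = 2.07e-07). These are 12.0-fold and 8.58-fold rises, while the coding reads of the same genes did not pass. Hsp90b1 had 49.4 and 41.5 against 44.8 and 141, so that its groups overlapped and its change of 0.80 did not pass (adjusted p = 0.153).

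Of 7 CCT genes tested in the 5' UTR, 6 rose, beside 44.0% of all genes tested. Among the 6 were Cct3, Cct5 and Cct6a, which were under the filter in the controls. Cct3 (chr3:88297135-88321766) had 8.60 and 2.59 normalized 5' UTR reads in the control libraries and 47.8 and 115 in the eIF1A siRNA libraries, a change of 3.68 ± 0.54 (limma adjusted p = 7.9e-10). Cct4 had 27.2 and 31.1 against 199 and 262, a change of 2.93 ± 0.46 (adjusted p = 1.57e-08). Cct5 had 2.15 and 1.73 against 22.4 and 30.3, a change of 3.21 ± 0.69 (adjusted p = 4.81e-05). In all 3 the lower eIF1A siRNA library is several-fold above the higher control. Cct6a was at 1 read in each control library, the lowest value in the table, which may stand for none, and at 19 and 12 reads after eIF1A siRNA. It passed limma's threshold (adjusted p = 0.000227), but its fold can only be bounded from below: the lower 95% counting limit of the ratio was 6.25 for the reads as deposited and 11.7 with 1 read less in each value. Cct8, with 1 read in each control and 7.12 and 20.7 normalized reads after eIF1A siRNA, was too low to be tested. Cct2 (1.98) and Cct7 (1.34) rose by less. Tcp1 again stood lowest in the family, with 99.6 and 101 against 152 and 259, and a change of 0.97 that did not pass (adjusted p = 0.0553).

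Both HSP110 genes rose in the 5' UTR, beside 44.0% of all genes tested. Hspa4 (chr11:53259814-53300479) had 24.4 and 25.9 normalized 5' UTR reads in the control libraries and 138 and 152 in the eIF1A siRNA libraries, a change of 2.48 ± 0.48 (limma adjusted p = 4.37e-06). Hsph1 had 7.88 and 13.8 against 44.8 and 131, a change of 2.76 ± 0.51 (adjusted p = 2.15e-06). In Hspa4 the 2 libraries of each group are close together, and the groups differ more than 5-fold. Of 4 HSP70 genes tested, Hspa5 rose from 107 and 129 to 301 and 437 (1.62 ± 0.42, adjusted p = 0.000793) and Hspa8 from 64.5 and 70.0 to 127 and 254 (1.41 ± 0.45, adjusted p = 0.00637). Hspa14 (0.88) and Hspa1b (0.83) did not pass.

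Further genes that rose in the 5' UTR were Fkbp1a, the isomerase FKBP12 bound by rapamycin (27.9 and 19.9 against 84.4 and 212; 2.46), and Pfdn6 (44.4 and 43.2 against 133 and 241; 2.01). Of 7 tested J-domain genes 5 rose, beside 44.0% of all genes tested. These were Dnajc19 (1.96), the histone chaperone gene Dnajc9 (1.88), Dnajc13 (1.83), the synaptic vesicle protein gene Dnajc5 (1.44) and Dnajb11 (1.28). Ahsa1 (1.71), Hspbp1 (1.63), Stip1 (1.40) and Fkbp4 (1.40) completed the list. None of the 3 tested BAG genes passed limma's threshold (Bag5 1.32, Bag3 0.74, Bag6 0.50), while 46.8% of all genes tested did. Of the BAG genes 1 had a limma unadjusted p under 0.05, and 0 were called by edgeR or DESeq2. Hspb8, the small heat shock protein that works with Bag3, had 20.8 and 31.1 normalized 5' UTR reads in the control libraries and 17.3 and 7.98 in the eIF1A siRNA libraries. Its change of -1.05 did not pass (adjusted p = 0.1), and 2.14 below the all-gene median it passed with TMM.

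**Figure D3:**
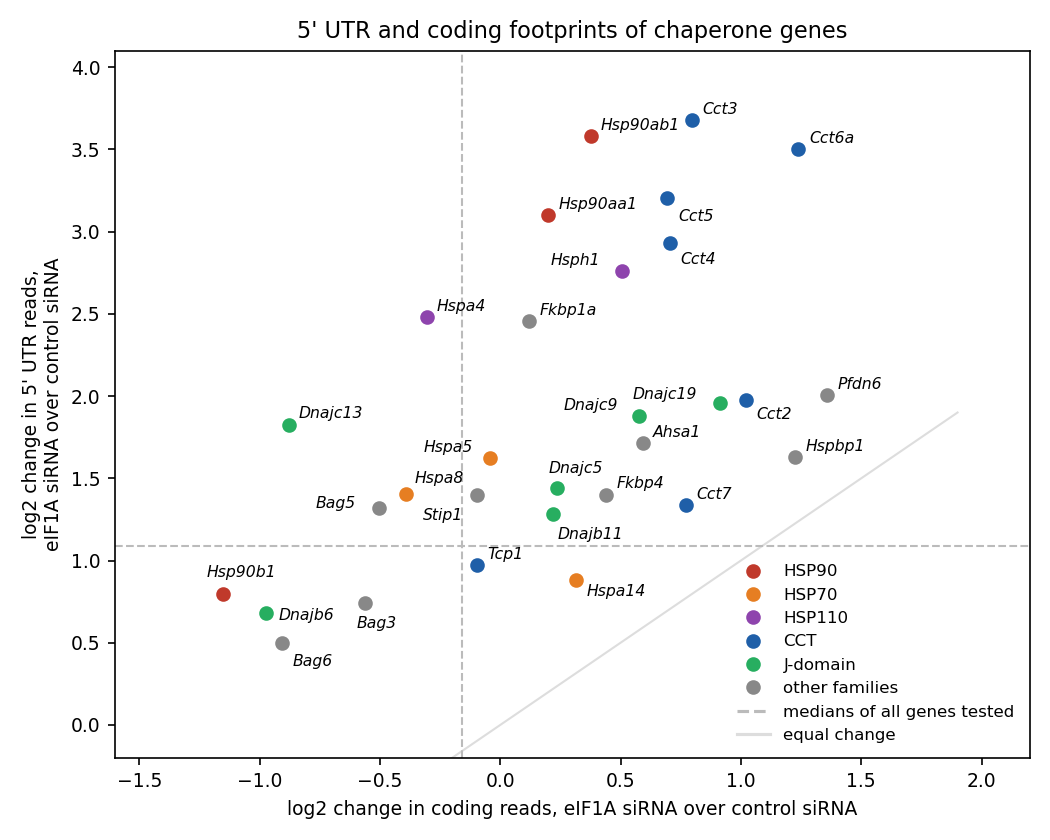
Log2 changes of 5' UTR reads (vertical axis) against those of coding reads (horizontal axis) for the 30 chaperone genes tested in both regions, with each point 1 gene coloured by family, dashed lines at the medians of all genes tested and a grey line of equal change. All 30 points lie above the grey line, with Hsp90ab1 and Cct3 at the top and Hsp90b1, Dnajb6 and Bag6 at the lower left.

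The 2 regions of a gene could change by different amounts. Hsp90aa1, Hsp90ab1 and Hspa4 combined 5' UTR rises above 2 log2 units with coding changes between -0.31 and 0.38. Dnajc13 rose in the 5' UTR (1.83) and fell in the coding region (-0.88). Pfdn1, Pfdn2 and Pfdn4 rose in the coding region with 1 read in the 5' UTR of all 4 libraries. This lowest value in all 4 libraries was found in 8 chaperone genes (13.3%) and in 17.6% of all genes.

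Dividing 5' UTR by coding reads compares both regions within a library, so library size cancels. Of 30 chaperone genes tested, 13 rose in this ratio at a limma adjusted p under 0.05 and 17 did not pass, against 20.5% higher and 0.0524% lower (20.6% in all) among 1907 genes. No chaperone gene fell by limma, edgeR or DESeq2, and 0 were lower at an unadjusted p under 0.05. The median change was 1.57 for the chaperone genes and 1.23 for all genes. In 23 both eIF1A siRNA libraries lay above both controls (63.9% of all genes tested) and in none below (1.52%). With TMM within each region, which brings the all-gene median to 0.01, 2 chaperone genes rose, Hsp90ab1 (1.93, adjusted p = 0.011) and Hsp90aa1 (1.69, adjusted p = 0.0464), beside 1.57% of all genes. Without control replicate 1 or control replicate 2 limma called 0 of all 1907 genes, chaperone genes included (5 and 4 of these at an unadjusted p under 0.05). Without eIF1A siRNA replicate 1 it called 24 chaperone genes higher, beside 61.0% of all genes. Of the genes that rose, Cct3, Cct5, Cct6a, Dnajc13 and Hsp90aa1 entered this test, too, with 5' UTR control means under 10. So did Ahsa1, Bag5, Dnajc9, Hspbp1 and Stip1, which did not pass. A count without such genes has no like background here.

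All 3 HSP90 genes rose by this measure, beside 20.5% of all genes tested. Hsp90ab1 had 2.43 and 4.43 5' UTR reads per 100 coding reads in the control libraries and 24.3 and 39.2 in the eIF1A siRNA libraries, a change of 3.21 ± 0.58 (limma adjusted p = 3.24e-05). Hsp90aa1 had 0.458 and 0.869 against 3.14 and 9.15, a change of 2.90 ± 0.69 (adjusted p = 0.00178). Hsp90b1 had 2.83 and 2.37 against 5.50 and 18.4, a change of 1.95 ± 0.65 (adjusted p = 0.0224). In all 3 both eIF1A siRNA libraries lay above both controls, beside 63.9% of all genes tested. Replicate 2 of eIF1A siRNA was the higher library each time. Summed over the family, the ratio went from 2.12 and 2.74 per 100 to 14.8 and 26.5, while all genes of the table together went from 13.1 and 15.9 to 24.9 and 48.0.

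Hspa4 had 6.25 and 6.70 5' UTR reads per 100 coding reads in the control libraries and 46.1 in both eIF1A siRNA libraries, a change of 2.79 ± 0.70 (limma adjusted p = 0.00231). Hsph1 rose by 2.25 on the log2 scale, Hspa8 by 1.80 and Hspa5 by 1.66. In the CCT family 4 of 7 tested genes rose, beside 20.5% of all genes tested. They were Cct3 (3.73 and 1.88 against 11.8 and 48.0, a change of 2.88), Cct5 (2.51), Cct6a (2.26) and Cct4 (2.23). In the control 5' UTR, Cct5 had 3 and 2 reads and Cct6a 1 in each library, so the size of their changes is uncertain. Cct7 (0.56), Cct2 (0.95) and Tcp1 (1.07) did not pass and lay below the all-gene median. Dnajc13 (3.80 and 2.61 against 17.0 and 31.0; 2.71) was the 1 J-domain gene of 6 that rose, and Fkbp1a (2.34) the 1 FKBP gene of 2. Summed over all 60 chaperone genes, the ratio was 6.20 and 8.53 per 100 in the control libraries and 18.5 and 40.8 in the eIF1A siRNA libraries.

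**Figure D4:**
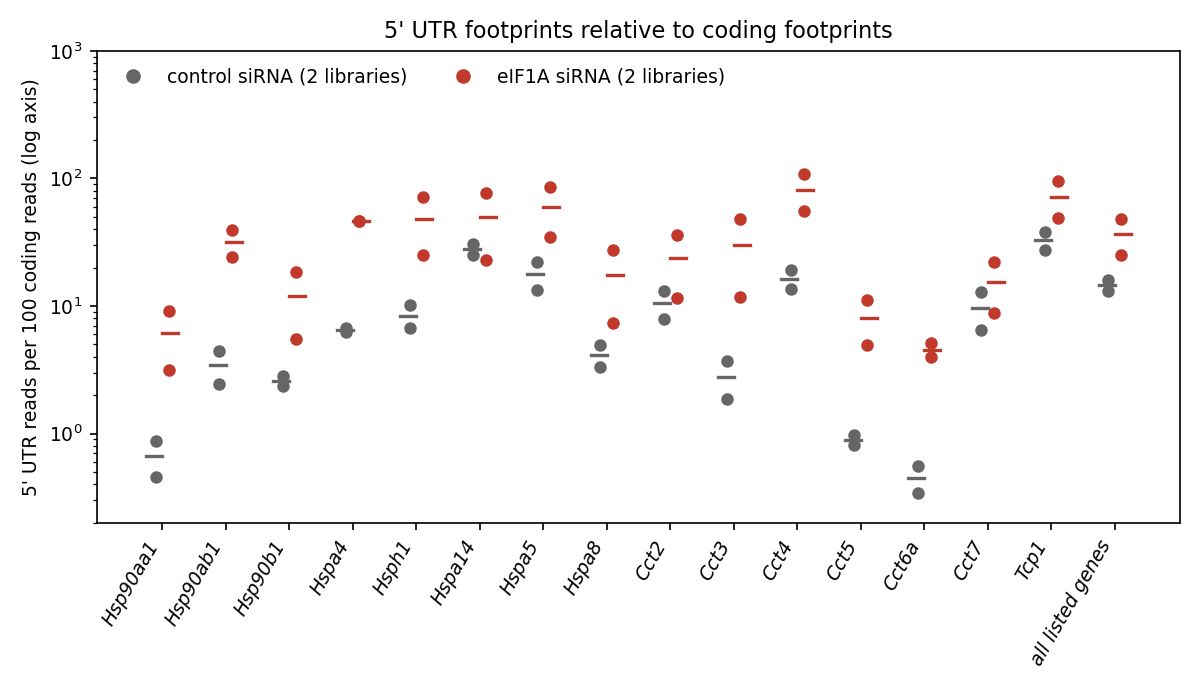
Reads in the 5' UTR per 100 coding reads (log axis) for the tested HSP90, HSP110, HSP70 and CCT genes and for all listed genes summed, with each library as 1 point, short bars at group means, and control siRNA and eIF1A siRNA in separate colours. The groups are apart in all 3 HSP90 genes and in Hspa4, with 6.25 and 6.70 against 46.1 in both, and overlap in Hspa14, Cct2 and Cct7. Among all genes tested, 63.9% had both eIF1A siRNA libraries above both controls.

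A few chaperone genes carried more reads in the 5' UTR than in the coding region. In both control libraries these were Dnajc24, Hspa1b, Hspb8 and Pfdn6, 6.67% of the 60 against 6.64% of all genes. In both eIF1A siRNA libraries they were joined by Bag5, Dnajc19, Dnajc5 and Fkbp1a, giving 13.3% against 12.5% of all genes. Pfdn6 (chr17:33938909-33940343) had 282 and 294 5' UTR reads per 100 coding reads in the control libraries and 285 and 686 in the eIF1A siRNA libraries, so its groups overlapped. Both regions of Pfdn6 rose, and its ratio did not pass (0.65, limma adjusted p = 0.518). In all, the spans of 14 chaperone genes overlap another protein-coding gene, and the sources used here do not give whether reads were counted by strand.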

How the data were processed

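Per the submitters' processing notes, the authors used cutadapt, Bowtie, TopHat2, HTSeq and DESeq2 with mm10, with no versions or roles given. The authors deposited, per the file headers, a normalized signal for the 5' UTR and for the coding sequence of each gene. Dividing each column by its smallest step gave whole reads for 100% of values, within 0.001. No column holds 0, so a value of 1 read may include genes without reads, or may be an offset. Totals are those of listed genes, not library depth.

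Deposited values were tested as log2(value + 1) with limma 3.58.1 (R 4.3.3; mean-variance trend, Benjamini-Hochberg over all genes tested, threshold 0.05) where the mean was at least 10. The ratio required both regions to pass. This scale understates changes of genes with few reads. edgeR 4.0.16 on the recovered whole reads called 1517 genes for coding reads. DESeq2 1.42.0, TMM and quantile scaling, other pseudocounts and filters, 1 read subtracted, no trend, a replicate block and leaving out each library were alternatives. The procedure was tested on simulated data.

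The members and lists were chosen with earlier results of these data known. Named were all tested HSP90, HSP70 and CCT genes, all members past the threshold, up to 2 further members of each other family and up to 4 passing genes per list of other pathway genes. Others are named to complete a count or for their position in a family and were chosen after their values were seen. Coordinates and promoters are from RefSeq GRCm38.p6 tables, matched by symbol for 60 and 48 members.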

Additional observations from a re-analysis of the deposited data

How the results depend on the processing

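No named gene past the threshold changed direction under any alternative tried. Of coding calls (7 higher, 8 lower), a mean of at least 50 gave 4 and 5, TMM gave 15 higher and 6 lower, quantile scaling 15 and 4, DESeq2 4 and 4, and the fit without a variance trend 5 lower. Leaving out 1 library in turn gave 0 to 15 higher and 0 to 10 lower. In the 5' UTR (23 higher, 0 lower), a mean of at least 50 gave 8 higher, TMM gave 12 and 1, and quantile scaling 13 and 1. Leaving out 1 library gave 8 to 30 higher and 0 to 1 lower. For the ratio (13 higher), a mean of at least 50 gave 6, TMM 2 and quantile scaling 1, and leaving out 1 library gave 0 to 24. The HSP90 coding median (0.20) was 0.45 with quantile scaling and 0.05 to 0.35 with 1 library left out, and the J-domain median (0.22) was 0.38 with TMM and -0.089 to 0.53 with 1 library left out. The CCT median (0.74) ran from 0.43 to 1.07 and the HSP70 median (-0.31) from -0.68 to 0.05. Over all genes, TMM moved the split of higher and lower calls from 488 and 864 to 782 and 768 for coding reads and from 924 and 59 to 412 and 423 in the 5' UTR.

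The groups share replicate numbers, and deviations of libraries with the same number correlated at 0.261 for coding reads and -0.061 in the 5' UTR. With 2 pairs this does not show a pairing. A replicate block gave 15 higher and 9 lower chaperone genes for coding reads, 27 and 1 in the 5' UTR and 17 for the ratio. With 2 libraries in each group and eIF1A siRNA replicate 2 the shallowest (a median of 19 coding reads per gene), small changes of genes with few reads were not detectable at this depth.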
